A study of Homo sapiens with 2 samples.

Results

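The genes described here encode the core splicing machinery and the hnRNP proteins. They were taken by name as the protein-coding genes of the RefSeq gene table whose symbol starts with SRSF, HNRNP, U2AF, SF3A, SF3B, SNRP or PRPF. This gave 74 genes of the 19821 protein-coding genes on chromosomes 1 to 22 and X. There were 12 SRSF genes, 26 HNRNP genes, 3 U2AF genes, 9 SF3A and SF3B genes, 12 SNRP genes and 12 PRPF genes. No measured value entered this rule of names, although it was chosen with earlier results of these data known. The series held a single group of 2 biological replicates, with no treatment and no other cell type: wild-type HUDEP-2, a human erythroid progenitor line that grows indefinitely in culture. Starts of transcription were mapped by PRO-cap, in which nuclei run on with labelled nucleotides and newly made RNA is sequenced from its capped 5′ end. The deposited data were lists of called start positions in hg38, of which 13229 were forward and 13166 reverse.

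Introns are removed from pre-mRNA by the spliceosome, which is built from small nuclear ribonucleoproteins (snRNPs) and many other proteins. The U1 snRNP binds the 5′ splice site, U2AF binds the polypyrimidine tract and the AG of the 3′ splice site, and the U2 snRNP with its SF3A and SF3B complexes binds the branch site. The tri-snRNP of U4, U6 and U5, which holds several PRPF proteins, then joins and forms the catalytic centre. The SNRP genes encode the Sm proteins that ring most spliceosomal snRNAs, and proteins particular to U1 or U2. SR proteins (SRSF genes) mostly bind exonic enhancers and recruit the machinery, and hnRNP proteins coat nascent RNA and often repress nearby splice sites. Erythroid differentiation is known for extensive changes of splicing, and SF3B1 is the gene most often mutated in the myelodysplastic syndrome with ring sideroblasts.

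A call in the deposited lists is a position with no strength: the score was 0 for every call, and the lists name no replicate. Depth, the threshold of calling and the spread between replicates are therefore unknown, no test between groups was made, and shares carry 95% Wilson intervals that cover counting error over genes only. A gene without a call may be transcribed below the threshold. The cell label was checked against marker genes. All 9 erythroid markers, among them GATA1, KLF1, ALAS2, AHSP, HBB, SLC4A1, TFRC and EPOR, had a called start, whereas 0 of 5 lymphoid, 0 of 4 monocyte and granulocyte, 0 of 3 megakaryocyte and 0 of 3 stromal markers did.

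The sequence at the called base was read for genes in the RefSeq promoter table (GRCh38.p14). Of the calls that the table's windows cover, the nearest to its annotated end in each family is shown from 40 bases upstream to 20 bases downstream, 5′ to 3′ on the strand of the gene. Capitals mark the called base and the base after it, the step on which the results below turn.
SRSF10, chr1:23980307-23980367, minus strand: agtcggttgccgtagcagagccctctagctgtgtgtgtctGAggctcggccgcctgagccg
HNRNPA0, chr5:137754344-137754404, minus strand: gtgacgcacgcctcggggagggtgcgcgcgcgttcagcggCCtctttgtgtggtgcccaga
U2AF1L4, chr19:35745395-35745455, minus strand: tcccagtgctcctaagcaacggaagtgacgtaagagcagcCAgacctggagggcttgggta
SF3A3, chr1:37990003-37990063, minus strand: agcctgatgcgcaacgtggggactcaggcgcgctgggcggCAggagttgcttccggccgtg
PRPF38A, chr1:52404562-52404622, plus strand: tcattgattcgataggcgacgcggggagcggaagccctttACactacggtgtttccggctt
SNRPE, chr1:203861597-203861623, plus strand: ttctttATtccggaagttgctctcaga
The SNRPE stretch is shorter because the table's window opens 6 bases before the call. The call of SNRPG, 2 bp from its end, lay outside these windows.

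Called starts were present at 60 of the 74 splicing and hnRNP genes, 81.1% (70.7 to 88.4%), against 41.4% of all coding genes (8207 of 19821). A start call is a call within 500 bp of a gene's outer end that points into the gene. Any call inside the gene or within 500 bp of it was found for 66 of 74 members, 89.2% (80.1 to 94.4%), against 52.6% of all coding genes. Both intervals lie above the share of all coding genes, a group that also holds every gene silent in these cells. Strand was known for 65 members and 15812 coding genes through the promoter table. The annotated 5′ end had a start call in 53 of these 65, 81.5% (70.4 to 89.1%), against 42.9% of all coding genes with strand. An inward call at the annotated 3′ end was found for 1 of 65 members, 1.54% (0.272 to 8.21%), against 1.33% of all coding genes.

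The families ran from 69.2% to 100% called. All 9 SF3A and SF3B genes (70.1 to 100%) and all 3 U2AF genes (43.9 to 100%) had a start call. The SNRP genes had one in 11 of 12, 91.7% (64.6 to 98.5%), and the SRSF genes in 10 of 12, 83.3% (55.2 to 95.3%). The PRPF genes followed with 9 of 12, 75% (46.8 to 91.1%), and the HNRNP genes with 18 of 26, 69.2% (50 to 83.5%). These intervals overlap, so that no order among the families can be read. The HNRNP family holds 6 genes named as copies, HNRNPCL1 to HNRNPCL4, HNRNPA1L2 and HNRNPA1L3. Without them, a choice made after the values were seen, 17 of 20 HNRNP genes and 59 of 68 members had a start call, 86.8% (76.7 to 92.9%) of the members.

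**Figure D1:**
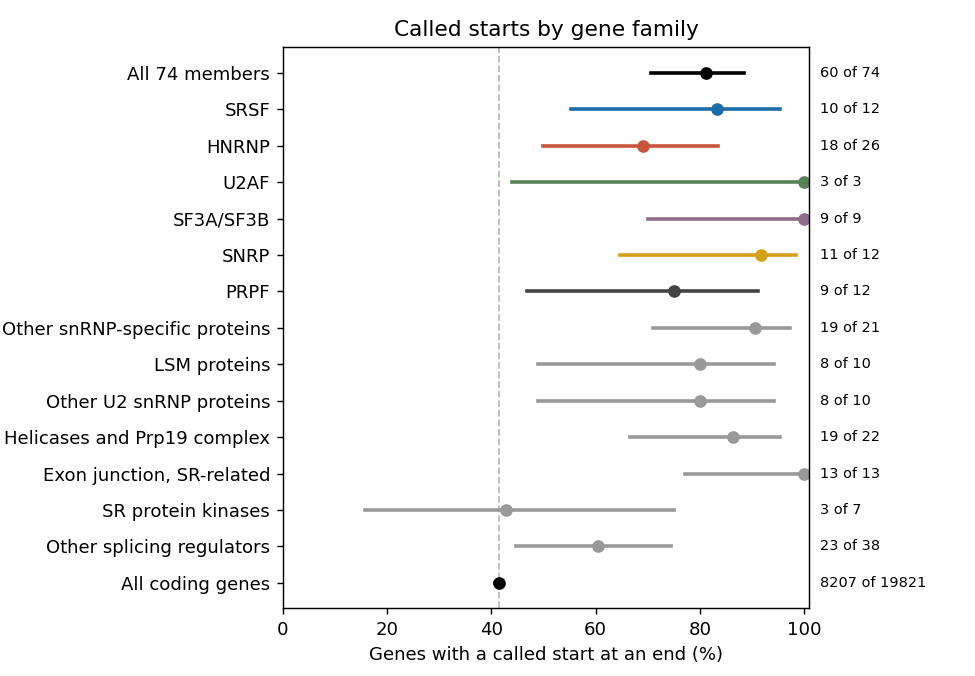
Percentage of genes with a called start at an end (x axis) for all 74 members, the 6 families, 7 lists of other splicing genes and all coding genes; points are shares, bars are 95% Wilson intervals, and the dashed line is the share of all coding genes. The members lie at 81.1% and all coding genes at 41.4%; the SR protein kinases (3 of 7) lie at 42.9%, next to the line.

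Called starts lay close to the annotated ends. The nearest start call of the 60 called members had a median of 6 bp inside the gene (quartiles −1 and 25 bp), against a median of 4 bp (quartiles −1 and 32 bp) over the 8207 called coding genes. It lay within 10 bp of the end in 28 of 60 members, 46.7% (34.6 to 59.1%), against 45.9% of called coding genes. Within 50 bp there were 50 of 60, 83.3% (72.0 to 90.7%), against 77.6%. The shares of all called coding genes lie inside both intervals. Below, a positive distance is inside the gene and a negative one outside.

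The genes of the proteins that recognise the 3′ splice site and the branch site each had a start call near the annotated end. It lay within 50 bp in 8 of 9 SF3A and SF3B genes, 88.9% (56.5 to 98.0%), and in 3 of 3 U2AF genes. The share of all called coding genes was 77.6%, inside the SF3A and SF3B interval. U2AF1, which reads the AG, was called 16 bp inside its end, and its paralog U2AF1L4 3 bp inside. U2AF2, which binds the polypyrimidine tract, had 2 start calls, at 43 and −459 bp. Each SF3A and SF3B gene had exactly 1 start call. Of the SF3A subunits, SF3A1 was called at 9 bp, SF3A2 at 22 bp and SF3A3 at −1 bp. Of the SF3B subunits, SF3B2 was called at 12 bp, SF3B3 at 6 bp, SF3B4 and SF3B5 at −1 bp, and SF3B6, the small protein at the branch adenosine, at −22 bp. SF3B1, the HEAT-repeat scaffold that clamps the branch site, was called 64 bp inside its outer end, which is 1 bp upstream of an annotated transcript start. No start call of this group therefore lay more than 64 bp from its end apart from the upstream call of U2AF2.

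Of the Sm ring genes, SNRPB was called at 32 bp, SNRPD1 at 19 bp, SNRPE at 4 bp and SNRPF at −7 bp, each with 1 start call. The SNRPE call lay 244 bp upstream of the nearest annotated transcript start. SNRPD2 had 1 start call 402 bp inside its outer end, the deepest of all nearest calls of the members, and that call lay 39 bp from an annotated transcript start. SNRPD3 and SNRPG had 2 start calls each. SNRPN, the SmN gene of the imprinted region of chromosome 15, had none at its ends. The U1 proteins SNRPC (15 bp) and SNRPA (2 start calls, the nearer at −8 bp) were called, as were the U2 proteins SNRPA1 (41 bp) and SNRPB2 (21 bp). The tri-snRNP genes PRPF3, PRPF4 and PRPF6 had 1 start call each at 88, 42 and 2 bp. The same number was found for PRPF18, a second-step factor (39 bp), PRPF19, the ubiquitin ligase of the Prp19 complex (42 bp), PRPF38A (0 bp), PRPF38B (16 bp) and the U1-associated PRPF39 (4 bp). PRPF8, PRPF31 and PRPF40B had no start call.

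Among the SR protein genes, SRSF10, SRSF5, SRSF3, SRSF9, SRSF2 and SRSF7 had 1 start call each, at 0, 2, 6, 31, 79 and 135 bp. The SRSF7 call lay 2 bp from an annotated transcript start. SRSF6, SRSF8 and SRSF11 had 2 start calls, SRSF1 had 3 with the call at its 3′ end, and SRSF4 and SRSF12 had none. The call at the 3′ end of SRSF1 (chr17:57988542) lay 496 bp outside the gene, at the edge of the window, and was also the start call of LOC101929185.

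The called hnRNP genes had a median distance of 1 bp over 18 genes (quartiles −1 and 14.25 bp). This was the smallest median of the families, but the quartile ranges of the other families overlap it. The nearest call lay at −1 bp in 7 of 18, 38.9% (20.3 to 61.4%), against 16.9% of called coding genes and 18.3% of called members. HNRNPA0, HNRNPA1, HNRNPA2B1, HNRNPAB, HNRNPD (AUF1, an AU-rich element binder) and HNRNPUL2 had their single start call 1 bp upstream of the annotated end. HNRNPF and HNRNPM were called at 4 bp, HNRNPLL at 6 bp, HNRNPC, the U-tract binder, at 17 bp, and HNRNPH2 at 22 bp, again with 1 start call each. The HNRNPF call lay 325 bp upstream of the nearest annotated transcript start. HNRNPA1L2 (−19 bp), HNRNPR (−29 bp), HNRNPU, a chromatin-bound RNA binder (61 bp), and HNRNPDL (235 bp) completed the genes with 1 start call. The HNRNPDL call lay 2 bp upstream of an annotated transcript start. HNRNPH3 and HNRNPK, a poly(C) binder, had 2 start calls each, and HNRNPL, which binds CA repeats, had 3. Whether reads of HNRNPA1L2 could be told apart from those of HNRNPA1 was not tested.

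**Figure D2:**
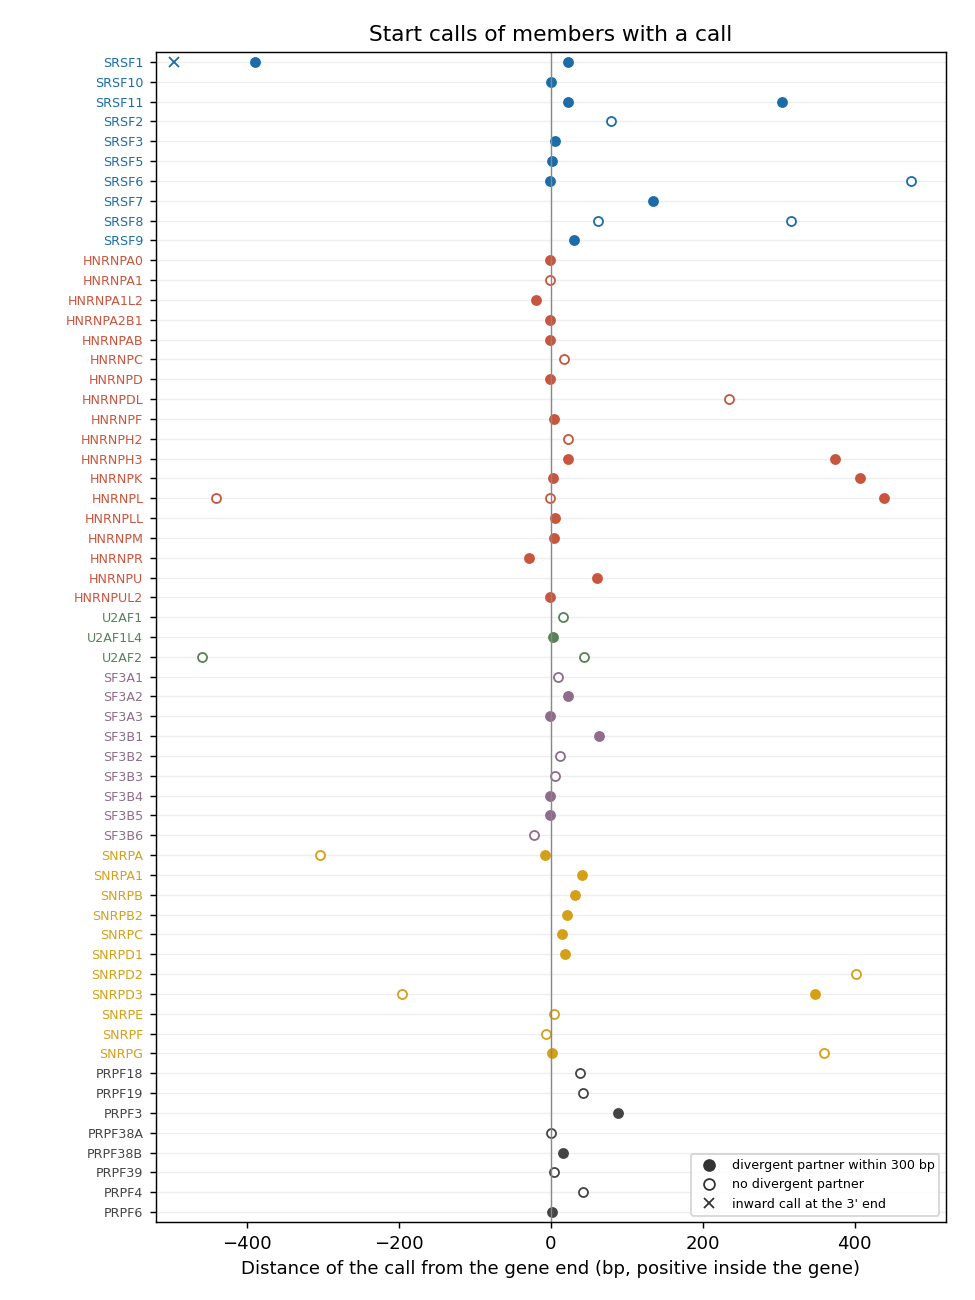
Distance of every start call from the gene end (x axis, bp, positive inside the gene) for 59 of the 60 called members, 1 line per gene, coloured by family; filled points have a divergent partner within 300 bp, open points have none, and the cross is the inward call at the 3′ end of SRSF1. The nearest calls centre on the end (median 6 bp, with 28 of 60 within 10 bp), and further calls lie farther out on either side.

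Further starts at the same end were found for 11 of the 60 called members, 18.3% (10.6 to 29.9%), against 14.1% of called coding genes, which lies inside the interval. They were spread over 4 of 10 called SRSF genes, 3 of 18 HNRNP genes, 3 of 11 SNRP genes and 1 of 3 U2AF genes, with 0 of 9 SF3A and SF3B genes and 0 of 9 PRPF genes. Neighbouring starts lay 254 to 544 bp apart (median 407.5 bp, 12 intervals), and no 2 calls of 1 strand in the whole list lay closer than 251 bp. Starts that lie closer than this in a cluster could therefore not be seen.

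In some genes the further start matched a transcript that is already annotated. HNRNPH3, a member of the G-run binding group, was called at chr10:68331716 and 351 bp downstream at chr10:68332067, which lie 23 and 3 bp from annotated transcript starts. HNRNPK was called at chr9:83980612 and 404 bp downstream at chr9:83980208, at 3 and 7 bp from annotated starts. The downstream call of SNRPD3 at chr22:24555998 lay 1 bp upstream of an annotated transcript start, and its upstream call at chr22:24555454 lay 544 bp away and 196 bp outside the gene. These 3 genes show a pair of starts that the annotation also holds, at least for the inner call.

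In the other genes 1 call lay within 62 bp of the annotated end, with a further call on 1 or both sides of it. SRSF1 was called at chr17:58007224 (22 bp) and 411 bp upstream at chr17:58007635. SRSF11 was called at chr1:70205719 (23 bp) and 281 bp downstream at chr1:70206000. SRSF6 was called at chr20:43457895 (−1 bp) and 475 bp downstream at chr20:43458370. Each of these SR protein genes thus had a call within 23 bp of its end beside the further one. SRSF8, an SR protein gene related to SRSF2, was called at chr11:95066939 (62 bp) and 254 bp downstream at chr11:95067193. U2AF2 was called at chr19:55655078 (43 bp) and 502 bp upstream at chr19:55654576. SNRPA was called at chr19:40751195 (−8 bp) and 296 bp upstream at chr19:40750899. For U2AF2 and SNRPA the further start lay outside the annotated gene. SNRPG was called at chr2:70293738 (2 bp) and 358 bp downstream at chr2:70293380, and the downstream call lay 67 bp from an annotated start. The outer SNRPG call lay 280 bp upstream of the nearest annotated transcript start. HNRNPL had calls at chr19:38852348 (−1 bp) and 440 bp to each side, at chr19:38852788 and chr19:38851908.

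The sequences around the nearest starts of 6 of these genes, the first by name apart from SNRPG, are shown in the same frame, with the inner starts of HNRNPH3, HNRNPK and SNRPD3, which were added after the values were seen because they lie at annotated starts. Capitals again mark the called base and the next base.
HNRNPH3, outer start, chr10:68331676-68331736, plus strand: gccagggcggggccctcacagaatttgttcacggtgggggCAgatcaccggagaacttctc
HNRNPH3, inner start, chr10:68332027-68332087, plus strand: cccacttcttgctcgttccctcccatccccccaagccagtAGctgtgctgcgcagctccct
HNRNPK, outer start, chr9:83980592-83980652, minus strand: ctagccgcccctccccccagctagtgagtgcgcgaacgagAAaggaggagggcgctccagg
HNRNPK, inner start, chr9:83980188-83980248, minus strand: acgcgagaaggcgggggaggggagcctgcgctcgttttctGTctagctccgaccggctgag
HNRNPL, middle start, chr19:38852328-38852388, minus strand: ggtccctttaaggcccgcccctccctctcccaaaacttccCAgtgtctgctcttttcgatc
SNRPA, chr19:40751155-40751215, plus strand: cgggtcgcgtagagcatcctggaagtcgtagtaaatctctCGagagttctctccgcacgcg
SNRPD3, outer start, chr22:24555414-24555474, plus strand: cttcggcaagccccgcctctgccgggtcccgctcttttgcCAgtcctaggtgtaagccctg
SNRPD3, inner start, chr22:24555958-24556018, plus strand: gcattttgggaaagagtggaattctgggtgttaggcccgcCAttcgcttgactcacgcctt
SRSF1, chr17:58007204-58007264, minus strand: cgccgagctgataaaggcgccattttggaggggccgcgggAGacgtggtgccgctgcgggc
Both SNRPD3 starts carry the step CA, whereas the outer and inner starts of HNRNPH3 and of HNRNPK have different steps.

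**Figure D3:**
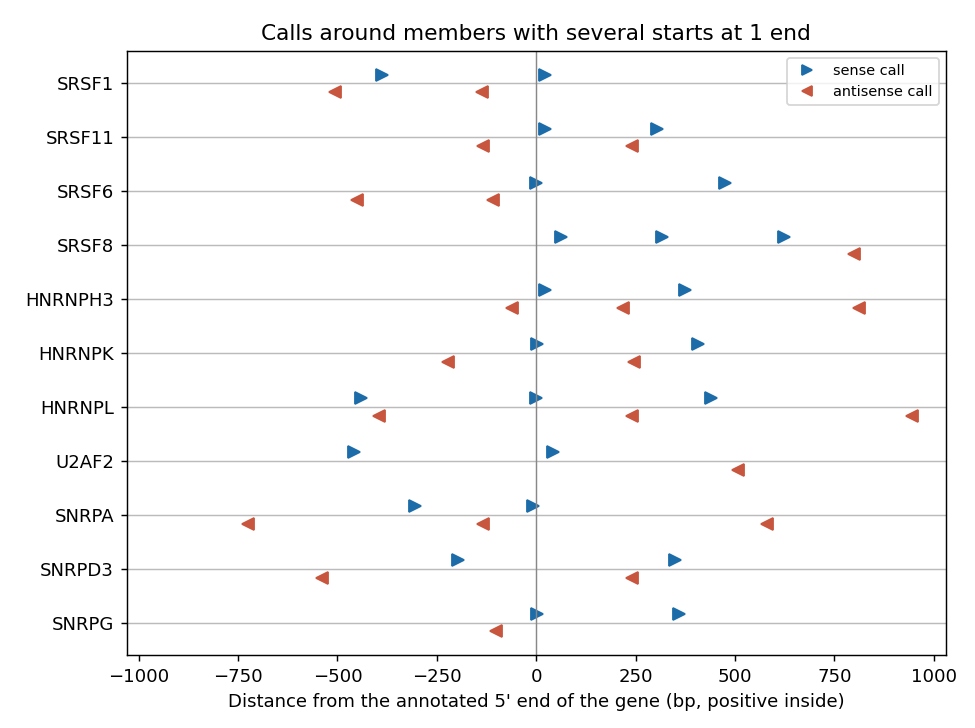
Calls within 1000 bp of the annotated 5′ end (x axis, bp, positive inside the gene) of the 11 members with several starts at 1 end; right-pointing triangles are calls in the direction of the gene and left-pointing triangles are calls against it. The spacing of neighbouring starts runs from 254 to 544 bp. In SRSF1, SRSF11, HNRNPH3 and HNRNPK each start shown has an antisense call of its own within 300 bp upstream of it.

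Antisense partners were common. Transcription from most human promoters is divergent, with an upstream antisense RNA that is usually short-lived. A divergent partner, meaning a call of the other strand that lies 0 to 300 bp upstream, was found at the nearest start of 38 of 60 called members, 63.3% (50.7 to 74.4%), against 50.7% of called coding genes. The lower bound of the interval equals the share of all coding genes. By family there were 8 of 10 SRSF genes, 13 of 18 HNRNP genes, 7 of 11 SNRP genes, 5 of 9 SF3A and SF3B genes, 4 of 9 PRPF genes and 1 of 3 U2AF genes. The excess depended on the distance allowed: within 150 bp the shares were 23.3% of members and 24.6% of called coding genes, and within 500 bp they were 75% and 62.1%. The partners of members lay at a median of 172 bp (quartiles 135.5 and 221.5 bp, range 85 to 277 bp), against 153 bp (quartiles 110 and 210 bp) for all coding genes. The median of the HNRNP genes was 217 bp over 13 genes, and the only U2AF partner lay at 235 bp.

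Most partners of the members marked no annotated gene. Of the 38 partners at nearest starts, 27 (71.1%) lay at no other gene end. A further 8 (21.1%) were a start call of another coding gene and 3 (7.89%) of a noncoding gene only. Over all coding genes with a partner, 29.3% of partners were a start call of another coding gene and 16.2% of a noncoding gene only. A start call here points into the gene at either end, whether or not its strand is known. Head-to-head coding partners were LRRC40 at SRSF11 (chr1:70205563 and chr1:70205938, 156 and 62 bp from its starts), DYNLL1 at SRSF9 (chr12:120469859, 142 bp), CBX3 at HNRNPA2B1 (chr7:26200993, 246 bp) and RMI1 at HNRNPK (chr9:83980838 and chr9:83980368, 226 and 160 bp). Others were TTC9C at HNRNPUL2 (chr11:62727681, 223 bp), PSENEN, a gamma-secretase subunit gene, at U2AF1L4 (chr19:35745650, 235 bp) and PLEKHJ1 at SF3A2 (chr19:2236664, 182 bp). The partner of HNRNPU (chr1:244864690, 208 bp) pointed into LOC124904588 at one of its ends. The strand of that gene was not given, so the call cannot be named its start. GUCD1 began at the partner of the inner SNRPD3 start only (chr22:24555892, 106 bp). The noncoding partners were HNRNPD-DT (chr4:82374186, 194 bp), SNRPA1-DT (chr15:101295351, 144 bp) and LOC124906023 at SNRPG (chr2:70293840, 102 bp). The start of HNRNPUL2 was also that of the readthrough gene HNRNPUL2-BSCL2.

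The promoter between HNRNPA2B1 and CBX3 is known as a ubiquitous chromatin opening element, used to keep transgenes active. Both of its directions were called here, and it is shown for that reason, a choice made after the values were seen. The stretch is chr7:26200697-26200996, read on the minus strand from 5′ to 3′, and the capitals near its left end are the CBX3 call and the base 5′ of it in this reading, while those near its right end are the HNRNPA2B1 call and the next base.
HNRNPA2B1 and CBX3: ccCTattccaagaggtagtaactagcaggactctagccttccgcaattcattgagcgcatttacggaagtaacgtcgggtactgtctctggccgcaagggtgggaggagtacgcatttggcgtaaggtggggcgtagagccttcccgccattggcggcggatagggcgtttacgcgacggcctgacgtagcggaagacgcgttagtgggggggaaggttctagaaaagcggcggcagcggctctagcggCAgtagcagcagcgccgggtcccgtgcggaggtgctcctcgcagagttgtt

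No divergent partner within 300 bp was found at the nearest start of 22 called members. Among them, HNRNPL and SNRPD3 had such a partner at another of their start calls (197 and 106 bp). Of the 22 members, 9 had an outward call further upstream of the nearest start, within 1000 bp. Of the 9 outward calls, 5 were starts of neighbours. They were CBX5 at HNRNPA1 (602 bp), ENOPH1 at HNRNPDL (363 bp), GLA at HNRNPH2 (319 bp), COG4 at SF3B3 (304 bp) and QPCTL at SNRPD2 (781 bp). The remaining outward calls lay 335 bp from SRSF2, 434 bp from HNRNPC, 395 bp from HNRNPL and 343 bp from SNRPD3. The genes with neither were SRSF8, U2AF1, U2AF2, SF3A1, SF3B2, SF3B6, SNRPE, SNRPF, PRPF18, PRPF19, PRPF38A, PRPF39 and PRPF4. The counts of outward calls further upstream and of neighbour starts among them were not set beside all coding genes. A convergent partner, an opposite call 1 to 300 bp downstream, was found at the nearest start of 7 of 60 members, 11.7% (5.77 to 22.2%), against 8.12% of called coding genes.

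Calls inside the genes were found in 23 of 74 members, 31.1% (21.7 to 42.3%), against 20.7% of all coding genes. An internal call lies in the gene and is neither a start call nor an outward call at an end. Sense internal calls were present in 13 of 65 members with strand, 20% (12.1 to 31.3%), against 14.7%, and antisense ones in 15 of 65, 23.1% (14.5 to 34.6%), against 16.5%. Among genes with a start call the shares were 30% of members (18 of 60) and 28.9% of all coding genes. More than 1000 bp from both ends they were 14.9% of members and 14.7% of all coding genes. The share of called splicing genes with an internal call was thus close to that of other called genes, with gene length not taken into account. Members were shorter, with a median length of 14725 bp against 24482 bp for all coding genes. Per 100 kb of gene they held 2.76 internal calls, against 0.667 for all coding genes, silent ones included. By family this density ran from 0.5 in the SF3A and SF3B genes to 5.98 in the SRSF genes. Density among called genes only is not given here. Of the 43 internal calls, 20 were sense, 20 antisense and 3 lay in genes without strand. Within 1000 bp of the 5′ end lay 10 of the antisense and 6 of the sense calls. Of the sense calls, 9 lay within 500 bp of an annotated transcript start. These places of the internal calls were counted for the members only and not set beside all coding genes.

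HNRNPF and HNRNPH1, both binders of G-runs, had 5 internal calls each, the most of all members. HNRNPF had its inner calls at chr10:43407779, chr10:43397430, chr10:43397199, chr10:43396760 and chr10:43396257. The pair at chr10:43397199 and chr10:43397430 was divergent, 231 bp apart, and the sense call lay 78 bp from an annotated inner transcript start. HNRNPL and HNRNPUL1 had 4 internal calls each. SRSF8 led the SRSF genes with 4, at chr11:95067501, chr11:95067676, chr11:95068678 and chr11:95068843, all within 2 kb of its 5′ end. SRSF11 had an inner divergent pair at chr1:70221306 and chr1:70221479, 173 bp apart, whose sense call lay 99 bp from an annotated transcript start. In SRSF2 the 2 internal calls lay at chr17:76736469 (reverse) and chr17:76736635 (forward), and the forward call was also a start call of MFSD11. Both lay within 500 bp of an end of MIR636, whose strand was not given, so neither can be named its start. The remaining families had few. U2AF2 had 1 (chr19:55655543), SF3A3 1 (chr1:37989413), SNRPA 1 (chr19:40751784) and SNRPN 1 (chr15:24954988), and PRPF40B led the PRPF genes with 2 (chr12:49623257 and chr12:49623423).

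The 14 members without a start call fell into several kinds. In 3 of them a sense call lay within 500 bp of an inner annotated transcript start. HNRNPH1 had 4 sense calls around its inner transcript starts. The call at chr5:179623669 lay 2 bp from such a start and 11115 bp inside the outer end. SNRPN, an imprinted gene with alternative upstream promoters, was called at chr15:24954988, 131351 bp inside the gene and 1 bp from an annotated start. The same position is the start call of SNURF, the gene that shares its transcript. PRPF40B was called at chr12:49623423, 777 bp inside the gene and 138 bp upstream of an annotated start. With any annotated transcript start in place of the outer end, a choice made after the values were seen, 56 of 65 members with strand had a sense start, 86.2% (75.7 to 92.5%), against 47.1% of coding genes with strand. The inner starts of HNRNPH1 and SNRPN are shown in the same frame, because the gene's start would be missed at its outer end.
HNRNPH1, inner start, chr5:179623649-179623709, minus strand: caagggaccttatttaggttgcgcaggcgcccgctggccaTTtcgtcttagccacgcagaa
SNRPN, inner start, chr15:24954948-24955008, plus strand: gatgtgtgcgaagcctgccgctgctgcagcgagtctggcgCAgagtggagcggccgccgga

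In another 2 genes a sense call lay just beyond the window. HNRNPA3 was called 627 bp inside its end (chr2:177213421), and HNRNPUL1 589 bp inside (chr19:41263146). SRSF4 had no sense call and 1 antisense call 381 bp inside its 5′ end (chr1:29181519), and its nearest sense call lay 48986 bp away. The remaining 8 genes, SRSF12, HNRNPA1L3, HNRNPCL1, HNRNPCL2, HNRNPCL3, HNRNPCL4, PRPF31 and PRPF8, had no call at all.

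PRPF8, which forms the catalytic cavity of the spliceosome, and PRPF31, a U4/U6 protein of the tri-snRNP, lay in long stretches without any call on either strand. The stretch around PRPF8 ran from chr17:1564510 to chr17:1829852, 265 kb with 8 whole coding genes. That around PRPF31 ran from chr19:54102885 to chr19:55117638, 1015 kb with 40 whole coding genes, the ribosomal protein gene RPS9 among them. The 4 HNRNPCL genes shared a stretch of 1082 kb with 31 coding genes, and HNRNPA1L3 lay in a stretch of 2312 kb with 5. SRSF12 was the only coding gene in its stretch of 64 kb. The absence of a call at PRPF8 and PRPF31 thus extended to their neighbours. The deposited lists also held calls on alternate sequences, 2 of chromosome 17 and 1 of chromosome 19 among them. These were not assigned to genes, and their part in the missing calls was not tested.

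The base at the called position was set beside the annotation. Human transcripts mostly begin at a purine that follows a pyrimidine, often the A of CA. Calls covered by the windows of the promoter table were used, with more than 1 call for some members. The intervals here are therefore over calls and not over genes. The called base and the base after it were a pyrimidine followed by a purine in 33 of 58 member calls, 56.9% (44.1 to 68.8%). The share was 47.2% (46.0 to 48.4%) of 6766 calls of all coding genes. The step was CA in 28 of 58, 48.3% (35.9 to 60.8%), against 37.2% (36.0 to 38.3%). The interval of the members includes the value of all coding genes for both measures. With the called base as the second base of the step, CA made up 3.45% of member calls and 1.33% of all. Pyrimidine-purine steps of any kind made up 25.9% and 30.6% at that place. With the second base 2 bases before the called base, they made up 25.9% and 20.9%. Whether some calls lie on the purine itself was not tested. The pattern was alike for forward calls (37.5% CA) and reverse calls (36.8% CA) of all coding genes. At annotated transcript starts of the members, the base before and the start itself were CA in 33.0% of 88 starts, against 36.1% of 22012 starts of all coding genes. The nearest call lay at −1 from an annotated transcript start in 12 of 53 members, 22.6%, and 17.8% of coding genes, and at 0 in 2 of 53, 3.77%, and 10.5%. Within 10 bp of the annotated start, −1 was the commonest single distance in both groups. The trinucleotide TCT centred on the called base, the core of the initiator of ribosomal protein genes, was found at 0 of 58 member calls and 1.29% of all. Centred 1 base after the called base, it was found at 0 of 58 and 0.0739%. With 58 calls, shares this low cannot be told from an absence.

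**Figure D4:**
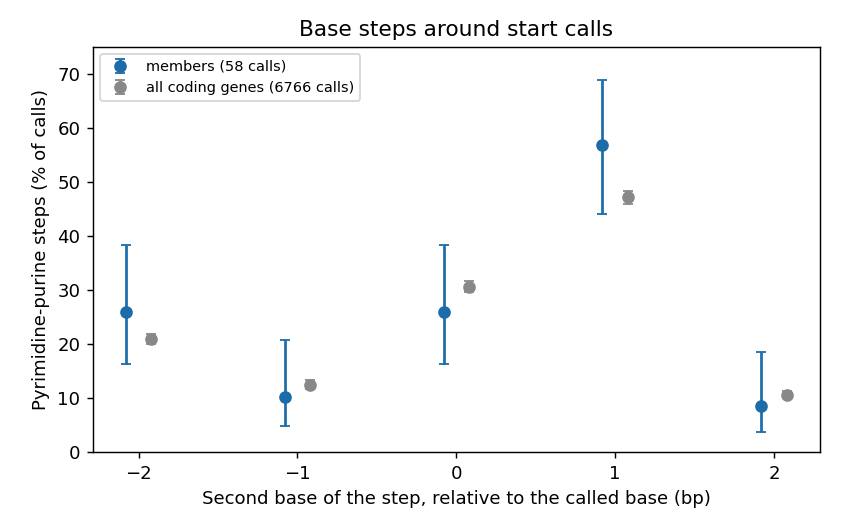
Share of calls in the promoter windows with a pyrimidine followed by a purine (y axis, %) against the place of the second base of the step relative to the called base (x axis, bp). Shown are 58 member calls (left of each pair) and 6766 calls of all coding genes, more than 1 for some genes. Bars are 95% Wilson intervals over calls. The share peaks 1 base after the called base, at 56.9% for members and 47.2% for all coding genes.

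Short motifs were counted on both strands of the promoter windows, 250 bases before to 50 after each annotated start, as a description of letters only. Of the motifs counted, CCGGAAG, the core of ETS factor sites, differed most and was found in 21 of 65 members, 32.3% (22.2 to 44.4%), against 14.1% of 15812 coding genes. Among genes with a start call, 37.7% of members (20 of 53) held it, against 24.4% of 6884 coding genes. The other motifs differed less. CCAAT was found in 44.6% of members and 36.4% of coding genes (43.4% and 39.4% among called genes), and GGGCGG, the GC box, in 58.5% and 58.3%. Among called genes GGGCGG was found in 60.4% of members and 73.3% of coding genes. TATAAA was found in 5 members (SRSF3, HNRNPAB, HNRNPC, HNRNPD and SNRPC), 7.69%, against 9.75% of coding genes, and among called genes the order was the other way, 9.43% of members and 5.1% of coding genes. GCATGCGC, part of the NRF1 site, was found in 4 members (SRSF10, U2AF1, U2AF1L4 and SF3A2), 6.15%, against 4.28%, and among called genes 7.55% and 7.35%. AAGATGGC, part of the YY1 site, was found in 4 others (SF3A1, SF3B2, SF3B4 and PRPF38B), also 6.15%, against 3.86%, and among called genes 7.55% and 7.15%. TGACGTCA, the cyclic AMP response element, was found in 0 of 65 members and 2.56% of coding genes, or 3.86% of called coding genes. CCGGAAG and AAGATGGC can share the letters AAG.

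Genes of 7 other splicing lists, outside the name rule, had called starts at a like rate, 93 of 121, 76.9% (68.6 to 83.5%). The exon junction complex and SR-related genes, such as EIF4A3, RNPS1 and SRRM2, were called in 13 of 13. Proteins particular to an snRNP were called in 19 of 21, with USP39 and SNU13 uncalled. Helicases and Prp19 complex genes were called in 19 of 22, with CRNKL1, CWC25 and DHX16 uncalled. The LSM genes were listed as a family, whether or not each acts in splicing. They were called in 8 of 10, with LSM2 and LSM11 uncalled, and other U2 genes in 8 of 10, with SMNDC1 and DDX42 uncalled. LSM2 and DHX16 shared a stretch of 5081 kb without any call that held 172 coding genes of chromosome 6, and CWC25 lay in another of 3266 kb with 59. Alternate sequences of chromosome 6 held 11 calls, which were not assigned to genes. Regulators outside the SR and hnRNP families were called in 23 of 38, 60.5% (44.7 to 74.4%), with CELF2, CELF3, CELF4 and CELF5 the first by alphabet of the 15 uncalled. The SR protein kinases were called in 3 of 7, 42.9% (15.8 to 75%), with CLK2, CLK3, SRPK2 and SRPK3 uncalled. Uncalled here means without a start call at an end. Internal calls were present in USP39 (3), SNU13 (4), CRNKL1 (2), CELF2 (7), CELF5 (1), CLK3 (6) and SRPK2 (2). SMNDC1 and DDX42 had only other calls in or within 500 bp of the gene. LSM2, LSM11, CWC25, DHX16, CELF3, CELF4, CLK2 and SRPK3 had no call at all.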

How the data were processed

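Nuclear run-on RNA of 2 biological replicates of wild-type HUDEP-2 cells was biotin-labelled and captured on beads before sequencing (source: the labels' protocols). BWA 0.7.16a, Picard, SAMtools 1.17, deepTools 3.5.4 and the build hg38 are named in the submitters' processing notes. No source used here gives the threshold of calling or the treatment of the replicates. The values the authors deposited are other than measurements: 1-base positions of 26395 calls, whose score the authors deposited as 0. The 26332 calls on chromosomes 1 to 22 and X were used, and the other 63 were left out.

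Genes came from a RefSeq table of GRCh38.p14 without 679 entries on other scaffolds. Strand, transcript starts and sequence came from the RefSeq promoter table. The windows were 500 bp for starts, 1000 bp outside to 500 bp inside an end for outward calls, and 300 bp for partners. Analyses used Python 3.11.15, pandas 2.3.3, numpy 2.4.6 and scipy 1.17.1, and were tested on simulated data. Members were named by rule, apart from some items not reported here, with positions for several starts, 3′ starts, partner genes and the member with most internal calls of each family. Sequences were shown for the nearest call of each family and for members with several starts, up to 12 genes. Of other lists, uncalled genes were named where 5 or fewer, otherwise the first 4 by alphabet. The members and lists were chosen with earlier results of these data known. Alternatives were windows of 200 and 1000 bp, partners within 150 and 500 bp, deeper limits for internal calls, genes of at least 2000 bp, 5′ ends only, any transcript start, copies left out and positions moved by 1 base. The long stretches without calls were measured after the values were seen.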

Additional observations from a re-analysis of the deposited data

How the results depend on the processing

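The count of called members stayed between 53 and 66 under 7 alternatives: 57 with a window of 200 bp, 63 with 1000 bp, 53 of 65 at 5′ ends only, 56 of 65 at any transcript start, 59 of 69 for genes of at least 2000 bp, 66 with any call in or near the gene and 59 of 68 without copies. The share of all coding genes was 38.2% with 200 bp and 44.1% with 1000 bp. Of the counts and medians recomputed, 50 values stayed within 1.5 times and 7 did not. Members with several starts numbered 0 with a window of 200 bp and 20 with 1000 bp. Members with internal calls numbered 11 beyond 1000 bp from both ends and 6 beyond 2000 bp, where 8.11% of members and 11.2% of all coding genes had one. Divergent partners within 150 bp were found for 14 members, convergent partners for 0 within 150 bp and 12 within 500 bp. Narrower limits can only lower these counts, and wider ones can only raise them.

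No paired analysis was possible because the lists name no replicate and hold a single group, and leaving out a replicate could not be run for the same reason. The alternative without near-identical proteins and the protein identities were not run, since no protein sequences were used here.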
